A study of Mus musculus with 6 samples.

Results

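The transcripts described here are 39 genes that mark spermatogonia and germ cells in meiosis, measured by RNA sequencing in cultures of primary mouse Sertoli cells, the somatic nurse cells of the seminiferous tubule. They were chosen by gene symbol, and all 39 were found among the 29275 genes listed for each library. The 6 libraries comprised 3 labelled as a conditional deletion of Arhgef15 in Sertoli cells (cKO) and 3 from wild-type (WT) mice, each numbered as biological replicates 1 to 3. Arhgef15 encodes a guanine nucleotide exchange factor, and the study asked how its loss in Sertoli cells bears on spermatogenesis. All cultures were kept at 34 °C in serum-containing medium with EGF. No label gives the driver of the deletion, the exons removed or the age of the mice. Nothing states that replicates came from separate animals, and the p-values then cover only the spread among these cultures, which may be technical. Values are FPKM, sequenced fragments scaled by gene length and by library depth, and are given in the order of replicates 1, 2 and 3.

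Germ cells sit between Sertoli cells in the living tubule and can be carried over into Sertoli cell cultures. Spermatogonia divide by mitosis and, on a retinoic acid signal, enter meiosis as spermatocytes. Spermatocytes break and repair their DNA, pair their chromosomes through the synaptonemal complex, protect their genome from transposons with PIWI-interacting RNAs (piRNAs), and switch on testis forms of common enzymes. Most of these genes are silent in somatic cells.

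Some facts of the libraries bear on every value below. Arhgef15 was listed at 0.501, 0.322 and 0.338 FPKM in the libraries labelled cKO, against 0.123, 0.0237 and 0.349 FPKM in WT libraries, so it was not lower under the cKO label, and groups are named by their labels throughout. Estimated depth was 16790000 to 20090000 fragments in libraries labelled cKO and 18750000 to 20320000 in WT libraries. Of the 29275 genes, 5574, 7342 and 6627 were at 0 in libraries labelled cKO, and 10170, 8468 and 5413 in WT libraries. Genes at 0 were thus fewest in WT replicate 3 and cKO replicate 1 and most frequent in WT replicate 1. WT replicate 3 stood apart from its group: across tested genes, its Pearson correlation was 0.947 with cKO replicate 1, but 0.860 with WT replicate 1 and 0.898 with WT replicate 2, where genes are not independent points. All 24 genes of a Sertoli marker list were listed, with a summed level of 1156, 889 and 1166 FPKM in the cKO-labelled libraries, against 485, 432 and 1371 FPKM in WT libraries. Its genes did not all follow that sum: Fshr, the receptor for follicle-stimulating hormone, did not exceed 1.42 FPKM and was at 0 in WT replicates 1 and 2, whereas Gata4 and Nr5a1 were highest in WT replicate 1, at 63.1 and 33.4 FPKM, and Inhbb in WT replicate 2, at 85.4 FPKM. A list of 15 macrophage genes summed to 155.9 to 291.7 FPKM in libraries labelled cKO and to 1252, 995.6 and 237.7 FPKM in WT libraries.

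Germ cell transcripts were high in 1 library of each genotype. Cultures cKO replicate 1 and WT replicate 3 held most of them, and the other 4 libraries held little. Of the 39 genes, 32 reached 1 FPKM in at least 1 library, and in 31 of these 32 the highest pair of libraries was cKO replicate 1 and WT replicate 3. The exception was Kit. The same pair was highest in 17.8% of the 14431 listed genes that reached 1 FPKM. In 19 of the 32 genes the second highest library was at least 5 times the third, a gap found in 2.88% of those listed genes, counting genes at 0 in all but the highest pair. Both properties together held for the same count, 19, against a background of 2.19%. These properties were described after the values had been seen, and they carry no test. Summed over the 39 genes the level was 586.7, 121.8 and 148.8 FPKM in libraries labelled cKO, against 64.6, 53.0 and 542.7 FPKM in WT libraries. Without Uchl1, the most abundant gene, the sums were 449.0, 27.7 and 38.2 FPKM against 24.2, 28.1 and 368.8 FPKM. The 2 genotypes thus overlapped, each with 1 library far above its others. In whole-culture RNA, fewer germ cells and less RNA per germ cell cannot be told apart.

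**Figure D1:**
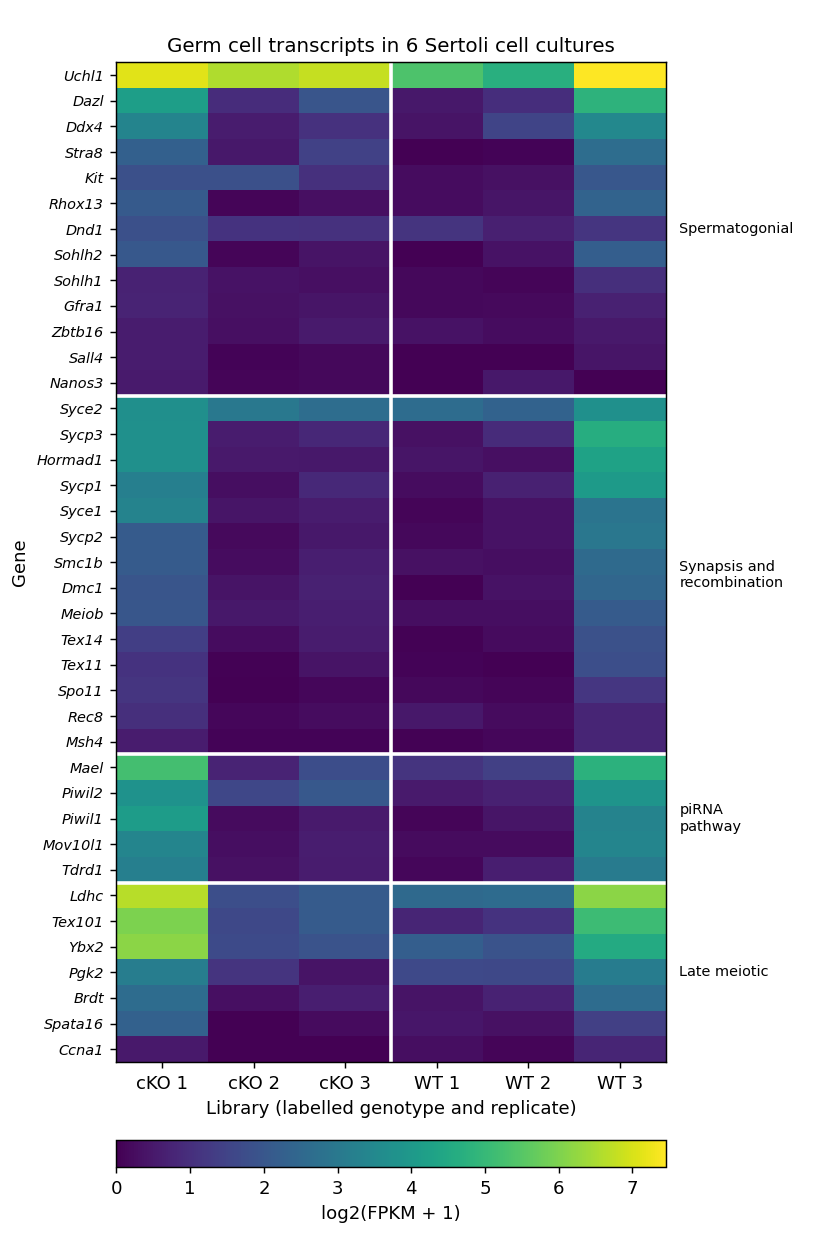
Level of each of the 39 germ cell transcripts, as log2(FPKM + 1) on a colour scale, in the 6 libraries (columns, 3 labelled cKO and then 3 WT), grouped by role in rows. The columns of cKO replicate 1 and WT replicate 3 are bright in all 4 blocks, while Uchl1 and Syce2 are seen in every library.

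The start regions of several of these genes share a short sequence. RefSeq promoter windows (build GRCm38.p6, 250 bases before to 50 bases after the annotated start) were matched by symbol for 32 of the 39 genes. The letters CACGTG, an E-box that the MAX and MGA proteins bind and through which many germ line genes are kept silent in other cells, were found in the windows of 12 of these 32 genes (37.5%). They were found in 8.09% of the 27025 genes with a window. CACGTG reads the same on both strands, and no other motif was searched. By role, the letters were found in all 4 piRNA pathway genes with a window, in 4 of 11 synapsis and recombination genes, in 2 of 10 spermatogonial genes and in 2 of 7 late meiotic genes. The median number of CpG pairs was 18 per window in the germ cell genes and 7 over all genes. CACGTG itself holds a CpG pair, and the share with the motif was not compared at like CpG number. The motif was not a strict mark of the pattern over the libraries: Dazl, Ldhc, Ybx2 and Tex101, all high in cKO replicate 1 and WT replicate 3, lack it. Syce2, present in every library, has it. These genes were picked, and genes with and without the motif were not compared as whole sets. A match of letters describes the window and is no measure of binding. Shown are 4 genes with the motif and, for comparison, Uchl1 without it, chosen after their values were seen. CACGTG is in capitals, and each window is read 5′ to 3′ on the gene's strand.
Ddx4: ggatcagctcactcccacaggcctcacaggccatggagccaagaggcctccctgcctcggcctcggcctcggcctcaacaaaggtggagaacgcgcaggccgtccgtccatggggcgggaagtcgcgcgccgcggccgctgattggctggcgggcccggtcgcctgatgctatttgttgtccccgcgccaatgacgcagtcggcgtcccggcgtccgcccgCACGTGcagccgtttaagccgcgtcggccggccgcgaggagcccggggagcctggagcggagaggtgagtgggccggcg
Sycp3: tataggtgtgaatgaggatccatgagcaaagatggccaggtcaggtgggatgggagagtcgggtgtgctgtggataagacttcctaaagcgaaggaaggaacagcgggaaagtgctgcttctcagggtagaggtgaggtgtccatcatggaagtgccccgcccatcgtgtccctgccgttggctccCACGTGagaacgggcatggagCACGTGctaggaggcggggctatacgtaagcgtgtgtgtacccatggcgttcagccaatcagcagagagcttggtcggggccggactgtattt
Hormad1: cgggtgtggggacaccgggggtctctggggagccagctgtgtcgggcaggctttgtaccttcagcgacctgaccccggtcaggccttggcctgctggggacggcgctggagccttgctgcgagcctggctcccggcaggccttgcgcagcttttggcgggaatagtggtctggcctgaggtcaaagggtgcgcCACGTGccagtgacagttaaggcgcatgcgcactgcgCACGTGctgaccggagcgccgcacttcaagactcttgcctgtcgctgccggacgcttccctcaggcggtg
Mael: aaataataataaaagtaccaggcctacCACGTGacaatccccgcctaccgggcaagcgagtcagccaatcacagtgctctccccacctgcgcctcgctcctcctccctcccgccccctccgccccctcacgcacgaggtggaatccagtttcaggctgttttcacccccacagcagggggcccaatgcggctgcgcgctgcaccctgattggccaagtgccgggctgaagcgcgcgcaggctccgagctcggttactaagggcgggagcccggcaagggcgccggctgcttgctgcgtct
Uchl1: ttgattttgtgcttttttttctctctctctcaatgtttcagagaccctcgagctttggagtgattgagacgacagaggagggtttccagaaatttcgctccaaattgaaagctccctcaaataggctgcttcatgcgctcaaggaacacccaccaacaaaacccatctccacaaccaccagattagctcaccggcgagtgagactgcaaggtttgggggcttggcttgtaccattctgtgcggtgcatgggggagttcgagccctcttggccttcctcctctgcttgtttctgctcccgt
The Ddx4 window lies at chr13:112652261-112652560 on the minus strand and holds 1 copy of the motif, at position -29 with the start site counted as 0. The Sycp3 window lies at chr10:88459337-88459636 on the plus strand and holds 2 copies, the first at -64. That of Hormad1 lies at chr3:95559427-95559726 on the plus strand, with 2 copies and the first at -57. The Mael window lies at chr1:166238695-166238994 on the minus strand, with 1 copy at -223. That of Uchl1 lies at chr5:66675871-66676170 on the plus strand, with 0 copies.

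Spermatogonial genes came first in the course of the germ line, and 13 were followed. Dazl, an RNA-binding protein of all germ cells, had 17.2, 0.920 and 2.92 FPKM in libraries labelled cKO, against 0.391, 0.966 and 27.4 FPKM in WT libraries. Ddx4, the VASA helicase of germ cell granules, had 9.35, 0.474 and 1.07 FPKM against 0.319, 1.89 and 10.1 FPKM in the same order. Both were high in cKO replicate 1 and WT replicate 3, and the genotypes overlapped. Stra8, the retinoic acid target that opens meiosis, had 3.92, 0.396 and 1.74 FPKM in libraries labelled cKO and 0, 0.0569 and 5.35 FPKM in WT libraries. Its value of 0 in WT replicate 1 allows up to 0.0887 FPKM, the level of 3 fragments, counting error only. Rhox13, an X-linked homeobox gene of spermatogonia and early spermatocytes, had 3.30, 0.0680 and 0.227 FPKM against 0.183, 0.351 and 4.16 FPKM. The bHLH factor Sohlh2, which drives spermatogonial differentiation, showed the same order, with a second highest library 10.1 times the third.

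Uchl1 and Kit did not follow that order closely. Uchl1, a ubiquitin hydrolase that marks spermatogonia and neurons, had 137.7, 94.0 and 110.7 FPKM in libraries labelled cKO, against 40.5, 24.9 and 173.9 FPKM in WT libraries. WT replicate 3 was thus the highest library, and WT replicates 1 and 2 lay below all cKO-labelled libraries. The second highest library was only 1.24 times the third. Kit, the receptor for stem cell factor on differentiating spermatogonia, had 2.495, 2.54 and 1.04 FPKM in libraries labelled cKO, against 0.186, 0.265 and 3.04 FPKM in WT libraries. Here cKO replicate 2 was level with cKO replicate 1, although Dazl was 17.2 FPKM in cKO replicate 1 and 0.920 FPKM in cKO replicate 2. The summed Sertoli marker list has the same 2 lowest libraries, WT replicates 1 and 2, as Uchl1 and Kit. So does a list of 9 endothelial genes, at 36.5 and 31.0 FPKM there. The part of either cell type in these values was not tested. An antisense gene, Uchl1os, overlaps 18.1% of the exonic length of Uchl1 and was listed at no more than 0.0471 FPKM in any library.

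The spermatogonial genes Zbtb16, Gfra1, Sall4, Sohlh1 and Nanos3 were near the lower limit of these data. The zinc finger repressor Zbtb16 (PLZF) had 0.488, 0.237 and 0.462 FPKM in libraries labelled cKO and 0.283, 0.194 and 0.428 FPKM in WT libraries. Its highest value rested on 50 fragments (exact Poisson 95% interval 37.1 to 65.9) in cKO replicate 1 and its lowest on 20 (12.2 to 30.9) in WT replicate 2. The GDNF co-receptor Gfra1 ranged from 0.272 to 0.659 FPKM in libraries labelled cKO and from 0.127 to 0.602 FPKM in WT libraries. Sall4, Sohlh1 and Nanos3 also stayed under 1 FPKM in every library. In WT replicate 1, Sall4, Nanos3, Sohlh2 and Stra8 were at 0. Such low levels did not hold for all spermatogonial genes. In a further list of 18 listed genes, 10 reached 1 FPKM in at least 1 library. Tspan8, with the highest mean of that list, had 6.85, 6.89 and 6.32 FPKM in libraries labelled cKO. In WT libraries it had 4.07, 2.23 and 9.80 FPKM. Dnd1, an RNA-binding protein needed for germ cell survival, had 2.503, 1.11 and 1.09 FPKM against 1.17, 0.574 and 1.20 FPKM, without a gap between libraries beyond cKO replicate 1. On its opposite strand Wdr55 overlaps 5.80% of its exonic length and had 14.1 to 20.3 FPKM, and without a stated strand setting the 2 genes cannot be fully separated.

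In 14 of 14 genes grouped under chromosome synapsis and recombination the highest pair of libraries was cKO replicate 1 and WT replicate 3. The same held in all 5 piRNA pathway genes and all 7 late meiotic genes. Sycp1, the transverse filament of the synaptonemal complex, had 8.30, 0.201 and 0.812 FPKM in libraries labelled cKO, against 0.17997, 0.606 and 15.7 FPKM in WT libraries. The axial element gene Sycp3 had 12.3, 0.471 and 0.787 FPKM against 0.253, 0.892 and 23.7 FPKM. Its partner Sycp2 had 3.43, 0.1497 and 0.384 FPKM against 0.107, 0.275 and 6.75 FPKM. All 3 were higher in WT replicate 3 than in cKO replicate 1. Chpt1 overlaps 52.2% of the exonic length of Sycp3 on the opposite strand and ranged from 2.30 to 5.51 FPKM, and its part in the low Sycp3 values was not tested. Hormad1, a protein of unsynapsed chromosome axes, had the widest gap, with 12.4, 0.413 and 0.403 FPKM against 0.339, 0.237 and 18.4 FPKM. Its second highest library was 29.95 times the third. It rested on 415, 12 and 14 fragments in libraries labelled cKO and on 11, 8 and 648 in WT libraries.

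The central element of the complex gave a contrast. Syce1 had 9.08, 0.326 and 0.477 FPKM in libraries labelled cKO, against 0.0731, 0.281 and 6.34 FPKM in WT libraries. Syce2, whose product binds next to that of Syce1, had 12.1, 6.90 and 5.31 FPKM against 5.18, 4.06 and 12.4 FPKM, so it was present in every library and its second highest library was 1.75 times the third. Smc1b, the meiotic cohesin subunit, had 3.37, 0.177 and 0.529 FPKM against 0.250, 0.203 and 5.00 FPKM. It amounted to 30.6%, 1.04% and 2.63% of its mitotic relative Smc1a in libraries labelled cKO, against 1.75%, 1.28% and 51.6% in WT libraries. Dmc1, the meiotic recombinase, had 2.88, 0.318 and 0.593 FPKM against 0, 0.295 and 4.53 FPKM. The single-strand DNA binding gene Meiob ranged from 0.397 to 3.01 FPKM in libraries labelled cKO and from 0.199 to 3.36 FPKM in WT libraries. Spo11, which makes the meiotic DNA breaks, had 1.20, 0.0152 and 0.102 FPKM against 0.109, 0.0654 and 1.26 FPKM. Rec8, Msh4, the X-linked crossover gene Tex11 and Tex14 did not exceed 2.57 FPKM in any library. Tex14 was counted in this group although it is not a synapsis or recombination gene.

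The 5 genes of the piRNA pathway were all highest in the same pair of libraries. Mael, a protein of the germ cell nuage, had 36.0, 0.687 and 2.41 FPKM in libraries labelled cKO, against 1.17, 1.69 and 26.9 FPKM in WT libraries. Piwil1, the PIWI protein of pachytene spermatocytes and spermatids, had 16.3, 0.164 and 0.457 FPKM against 0.0734, 0.329 and 8.98 FPKM. Piwil2, which is already used in spermatogonia, had 12.8, 2.03 and 3.13 FPKM against 0.464, 0.592 and 13.5 FPKM. Its low libraries therefore split, with both remaining cKO-labelled libraries above both remaining WT libraries, whereas those of Piwil1 did not. The helicase Mov10l1 had 9.46, 0.199 and 0.512 FPKM against 0.166, 0.159 and 9.52 FPKM, nearly equal in the high pair. Tdrd1, a Tudor scaffold of PIWI proteins, had 8.35, 0.263 and 0.494 FPKM against 0.0882, 0.537 and 7.49 FPKM.

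Late meiotic genes reached the highest levels after Uchl1. Ldhc, the testis lactate dehydrogenase subunit, had 99.3, 2.49 and 3.43 FPKM in libraries labelled cKO, against 4.86, 5.06 and 70.2 FPKM in WT libraries. It amounted to 11.2%, 0.364% and 0.725% of its somatic relative Ldha in libraries labelled cKO, against 0.519%, 0.601% and 8.16% in WT libraries. Ybx2, an mRNA-binding protein that stores transcripts in spermatocytes and spermatids, had 69.7, 2.18 and 2.72 FPKM against 3.68, 2.75 and 22.3 FPKM. The germ cell surface protein gene Tex101 had 62.7, 2.09 and 3.36 FPKM against 0.708, 1.14 and 33.4 FPKM. These 3 were higher in cKO replicate 1 than in WT replicate 3. Pgk2, a retrogene copy of the glycolytic gene Pgk1, had 7.84, 1.17 and 0.306 FPKM against 2.099, 2.05 and 7.75 FPKM. Pgk1 was listed at 395.2 to 622.7 FPKM, and the part of fragments shared with it in the low Pgk2 values was not tested. Brdt, a testis bromodomain protein, had 5.17, 0.245 and 0.545 FPKM against 0.313, 0.652 and 5.22 FPKM. Spata16 was at 0 in cKO replicate 2 and reached 3.98 FPKM in cKO replicate 1, and Ccna1, the meiotic cyclin A, stayed at or under 0.697 FPKM and was at 0 in cKO replicates 2 and 3.

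**Figure D2:**
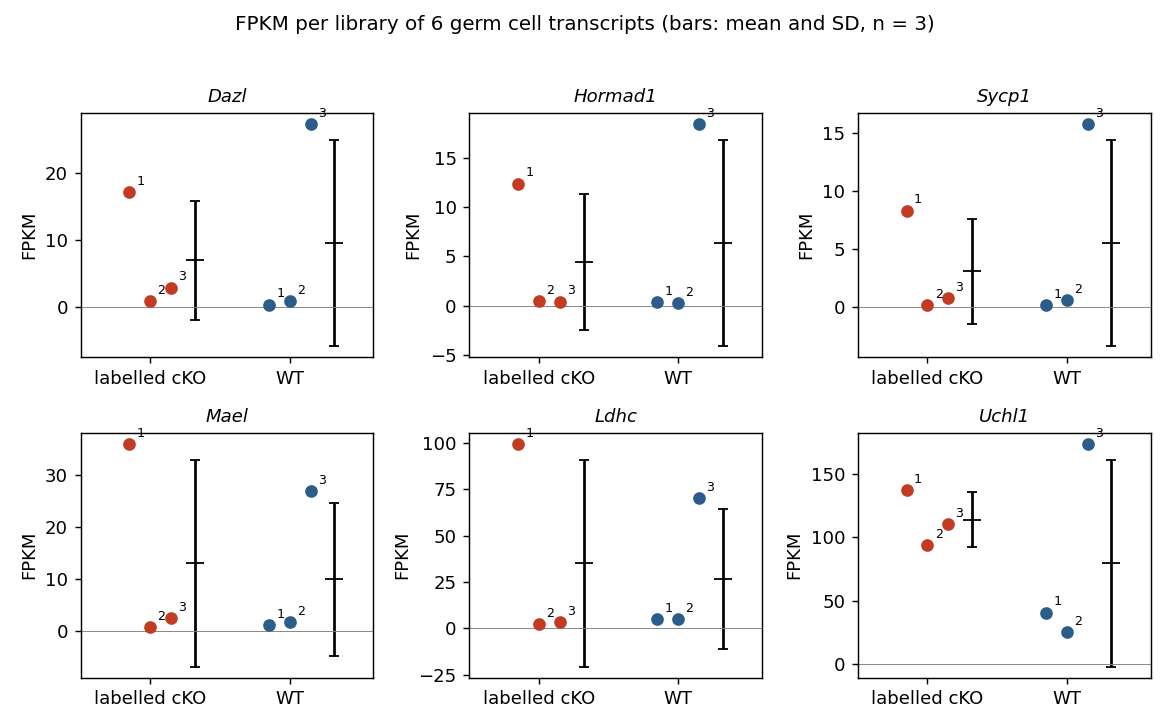
FPKM of Dazl, Hormad1, Sycp1, Mael, Ldhc and Uchl1 in each library (points, numbered by replicate), with the mean and SD of each genotype (bars, n = 3 each). For the first 5 genes 1 library of each genotype stands far above the rest, and the SD exceeds the mean in both genotypes, while Uchl1 has 3 cKO-labelled values of 94.0 to 137.7 FPKM and WT values of 24.9 to 173.9 FPKM.

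The genotype comparison found no gene of the 39 that passed. The test was limma on log2(FPKM + 1) over 12284 genes, those that 3 or more libraries held at 1 FPKM or above, with Benjamini-Hochberg adjustment. Only 13 of the 39 genes met that filter, since the other 26 reached 1 FPKM in at most 2 libraries. Of these 13, 0 passed an adjusted p under 0.05 and 0 had an unadjusted p under 0.05, against a background of 0.0163% and 6.81% of tested genes. Without the filter, over 29275 genes, 0 of 39 passed (background 0%) and 0 had an unadjusted p under 0.05 (background 4.52%), and the smallest limma adjusted p was 0.903. The 3 cKO-labelled values lay wholly above or below the 3 WT values in 0 of 39 genes, against 7.94% of listed genes and 11.3% of tested genes. Exact two-sided permutation tests of the single genes gave p from 0.4 to 1, and a comparison of 3 with 3 libraries cannot give a p below 0.1.

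The largest difference among the 13 was that of Uchl1, at 114.1 ± 22.05 FPKM in libraries labelled cKO and 79.8 ± 81.9 FPKM in WT libraries (SD, n = 3 each). Its log2 difference was 0.99 with an SE of 0.64 (limma, adjusted p = 0.815). Tex101 followed at 0.92 with an SE of 1.44 (limma, adjusted p = 0.924), and Piwil2 at 0.79 with an SE of 0.95 (limma, adjusted p = 0.900). Kit differed by 0.69 with an SE of 0.50, Stra8 by 0.50 with an SE of 0.77, and Dnd1 by 0.35 with an SE of 0.29. The other values were 0.35 for Ybx2, 0.27 for Dazl, 0.21 for Syce2, 0.13 for Mael, -0.14 for Ddx4, -0.24 for Ldhc and -0.57 for Pgk2. The SE of Dazl, Mael, Tex101, Ldhc and Ybx2 was 1.24 to 1.45, more than the log2 difference of 1 that a 2-fold change gives. Over all 39 genes, 23 had a higher mean and 16 a lower mean of log2(FPKM + 1) in libraries labelled cKO, and the median log2 difference was 0.10. Over all listed genes, 58.8% were higher and the median was 0.02. Of the 13 genes above the filter 10 were higher under the cKO label, against 59.8% of tested genes. Among WT libraries, Dazl, Stra8, Kit and Piwil2 reached 1 FPKM in replicate 3 alone, so they met the filter through cKO-labelled libraries. No gene of the 13 met it with cKO replicate 1 alone among cKO-labelled libraries. The filter thus shaped the direction of this count, which gives no support for a difference.

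**Figure D3:**
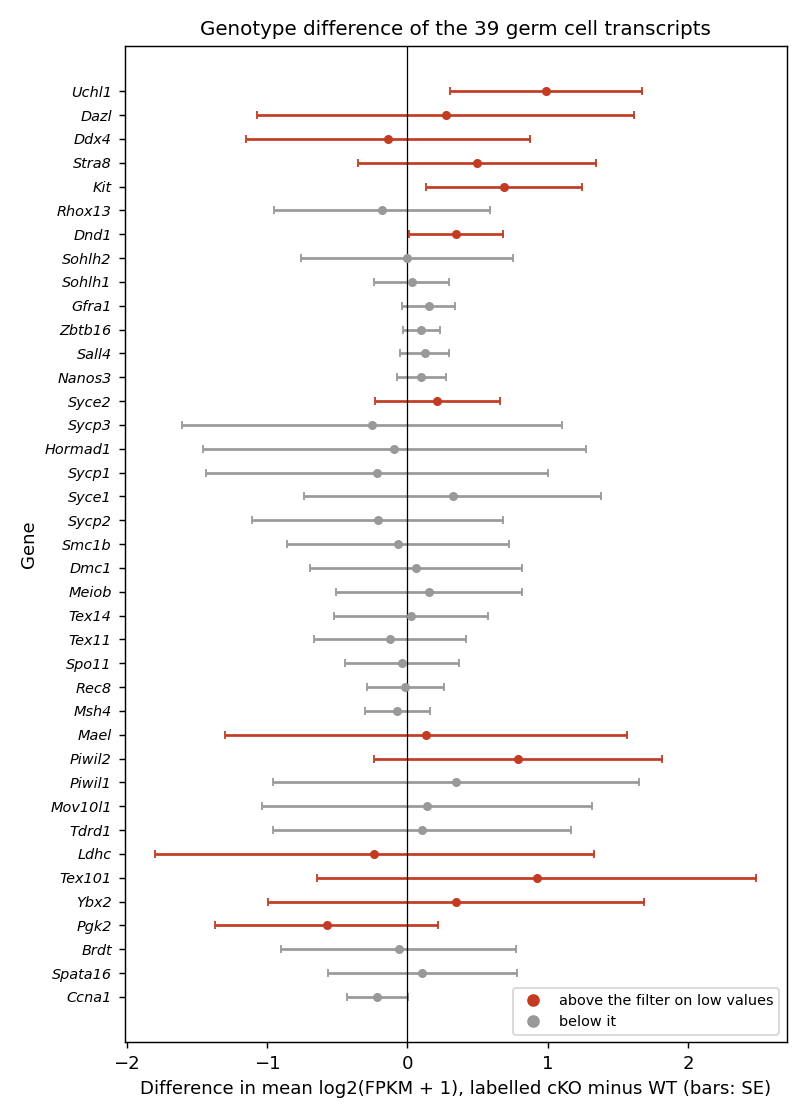
Difference in mean log2(FPKM + 1) between libraries labelled cKO and WT libraries for each of the 39 genes (points), with the SE of the limma fit over all 29275 genes (bars). Red points are the 13 genes above the filter on low values, and grey points those below it; differences run from -0.57 to 0.99 with SE of 0.13 to 1.56.

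The direction of this comparison moved with single libraries. Without WT replicate 3, the median log2 difference of the 39 genes was 0.70 and 37 were higher under the cKO label, against 64.4% of listed genes. In that fit 1 of the 13 tested genes passed, Uchl1, with a log2 difference of 1.79 (limma, adjusted p = 0.0219), while 478 of 12284 tested genes passed (3.89%). Without cKO replicate 1 the median was -0.45 and 7 were higher, against 49.8% of listed genes, and 0 of 13 passed (background 0%), with 1 at an unadjusted p under 0.05. Array weights, which count more variable libraries less, were also used in the fit without the filter. There 35 of 39 were higher, against 62.6% of listed genes, and 3 had an unadjusted limma p under 0.05, against 23.8%. The filtered fit, with weights of its own, differed: Dazl, Ddx4, Ldhc, Mael, Pgk2 and Ybx2 were lower under the cKO label. These ran from -0.20 for Dazl to -1.08 for Ldhc, and the rest of the 13 were higher, up to 0.80 for Uchl1. Without WT replicate 1 or WT replicate 2 the median of the 39 genes was -0.24 and -0.21. Without cKO replicate 2 or cKO replicate 3 it was 0.37 and 0.23.

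The ratio between the 2 libraries rich in germ cell transcripts was not the same for all germ cell groups. These libraries were picked because these transcripts are high in them, so their ratio is a description of 2 single libraries with no replicate check and no test. On the scale of log2(FPKM in cKO replicate 1 / FPKM in WT replicate 3), the median was -0.24 for spermatogonial genes (8 of 12 below 0; Nanos3 had no ratio), -0.57 for synapsis and recombination genes (12 of 14 below 0), 0.16 for piRNA pathway genes (3 of 5 above 0) and 0.50 for late meiotic genes (5 of 7 above 0). The median over the 14431 genes that reached 1 FPKM, where both were above 0, was -0.04. Lists of other cells and of the cell cycle also departed from it, with medians of 0.71 for 8 Leydig genes, 0.59 for 9 endothelial genes, 0.35 for 8 mitotic genes and -0.21 for 24 Sertoli genes. Among the 39 genes the log2 ratio ran from -1.16 for Tex11 to 1.65 for Ybx2. Sycp1 had a log2 ratio of -0.92, from 572 fragments in cKO replicate 1 (exact Poisson 95% interval 526 to 621) and 1138 in WT replicate 3 (1073 to 1206). The ratio of Ybx2 came from 2546 fragments (2448 to 2647) and 853 (797 to 912) in the same order. These intervals cover counting error only. Dnd1, a spermatogonial gene, went the other way from its group at 1.06, from 117 and 59 fragments, and Ccna1, a late gene, at -0.73, from 15 and 26 fragments in the same order.

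**Figure D4:**
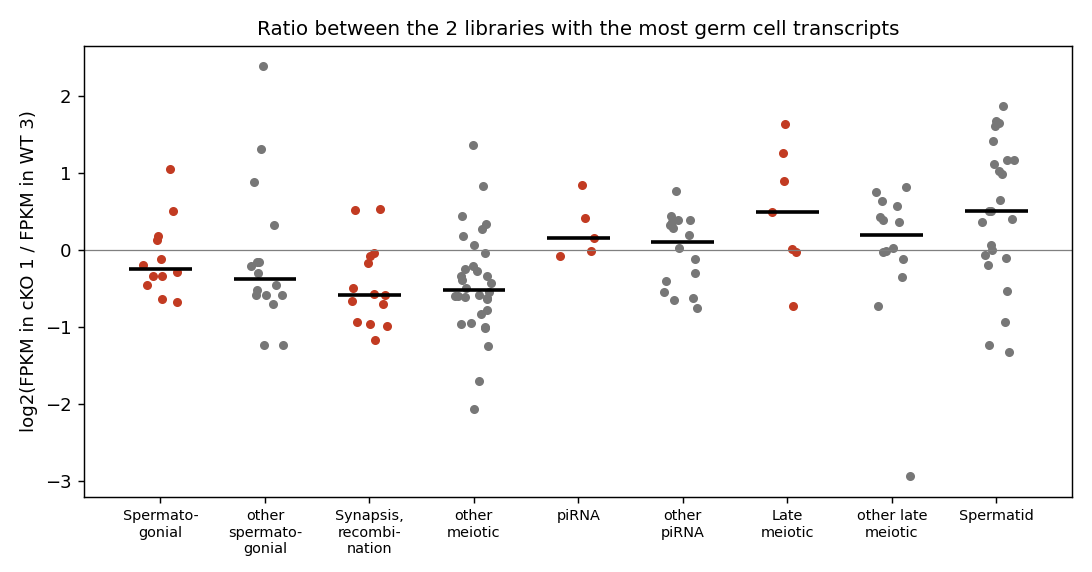
Log2 ratio of FPKM in cKO replicate 1 to FPKM in WT replicate 3 for each gene (points). Red points are genes of the 39, grey points those of further lists, and black bars are medians. Lists run from spermatogonial through synapsis, piRNA and late meiotic to spermatid genes, and the piRNA lists are a pathway, not a stage. The medians run from -0.57 for synapsis and recombination genes to 0.50 for late meiotic genes and 0.51 for spermatid genes.

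Further genes of the same pathways, from lists of known germ cell genes, were set beside the 39. None of them passed the genotype test: 0 of 8 tested spermatogonial genes, 0 of 5 meiotic genes, 0 of 3 piRNA genes and 0 of 5 late meiotic genes had a limma adjusted p under 0.05, and 1, 0, 0 and 1 of all listed members had an unadjusted p under 0.05 in the fit without a filter, Tcea3 among the spermatogonial and Cypt4 among the late genes. The backgrounds were 0.0163% of tested genes for the adjusted and 4.52% of listed genes for the unadjusted threshold. The pair of high libraries was the same in 23 of 28 further meiotic genes, 11 of 13 piRNA genes, 10 of 12 late meiotic genes and 5 of 10 spermatogonial genes that reached 1 FPKM. Over all listed genes that reached 1 FPKM this share was 17.8%. Ddx25 is counted in both the piRNA and the late meiotic list. Stag3, a meiotic cohesin subunit, had 8.15, 0.229 and 0.417 FPKM in libraries labelled cKO, against 0.0930, 0.268 and 7.73 FPKM in WT libraries. Hspa2, the chaperone of spermatocytes, had 61.2, 5.32 and 9.07 FPKM against 5.06, 6.85 and 40.9 FPKM. In these further lists the median log2 ratio of cKO replicate 1 to WT replicate 3 was -0.37 for spermatogonial, -0.51 for meiotic, 0.11 for piRNA and 0.20 for late meiotic genes.

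Spermatid transcripts did not track the meiotic ones in every library. The 26 listed spermatid genes summed to 376.2, 79.5 and 32.0 FPKM in libraries labelled cKO and to 221.6, 93.8 and 229.0 FPKM in WT libraries. Set against the summed synapsis and recombination genes, at 72.3, 9.75 and 10.98 FPKM against 7.18, 7.56 and 104.0 FPKM, the ratio was 5.21, 8.16 and 2.92 in libraries labelled cKO and 30.8, 12.4 and 2.20 in WT libraries. Syce2, present in every library, made up most of the lower synapsis sums in cKO replicate 2 and WT replicates 1 and 2. Without it the ratio was 6.25, 27.9 and 5.649 in libraries labelled cKO and 110.35, 26.8 and 2.499 in WT libraries. WT replicate 1 thus held spermatid transcripts with the lowest sum of synapsis and recombination genes. Late meiotic genes differed, with a sum of 12.2 FPKM there and 8.17 FPKM in cKO replicate 2. Smcp, a sperm mitochondrial protein gene, was at 48.0 FPKM in cKO replicate 1 and at 56.7 FPKM in WT replicate 1. Sycp1 was at 8.30 and 0.17997 FPKM in the same order. Smcp was picked after its values were seen: 4 of the 26 spermatid genes were highest in WT replicate 1 and 13 in cKO replicate 1. Among the latter, Prm1 had 71.1 FPKM in cKO replicate 1 and 34.0 FPKM in WT replicate 1.

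**Figure D5:**
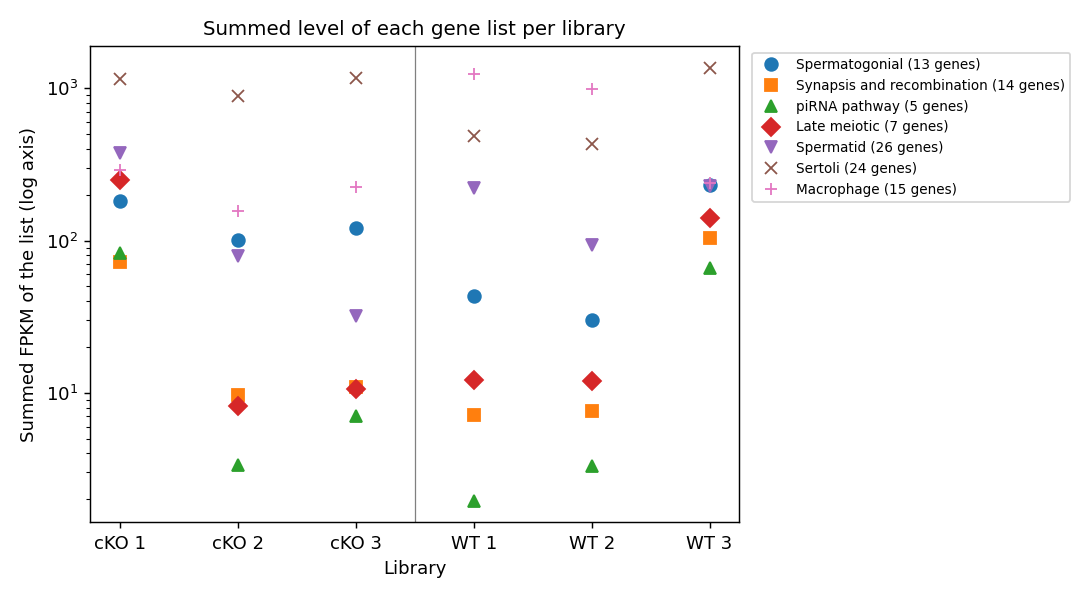
Summed FPKM (log axis) of the 4 germ cell groups and of the spermatid, Sertoli and macrophage lists in each library. The synapsis, piRNA and late meiotic groups are high in cKO replicate 1 and WT replicate 3, whereas spermatid genes are also high in WT replicate 1, at 221.6 FPKM.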

How the data were processed

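RNA of 3 cKO-labelled and 3 WT cultures was sequenced. FastQC, HISAT2 2.1.0 and build mm8 are named in the submitters' processing notes. Not given in the sources used here is how fragments were counted, with which annotation and whether by strand. The unit of the deposited values was taken from the values as FPKM: times exonic length (GENCODE M21), 99.0% to 99.4% of single-exon values of up to 10 fragments were whole within 0.02 times their fragment number. These steps gave the depths and fragment numbers; for Kit, Uchl1, Syce2, Piwil2, Ldhc and Ybx2 no value was low enough to check them. Identifiers matched a symbol for 28932 of 29275 genes. Coordinates are those of RefSeq promoters only.

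FPKM are not counts, so log2(FPKM + 1) was tested with limma 3.58.1 (R 4.3.3, eBayes with trend, genotype only, two-sided) on genes of at least 1 FPKM in at least 3 libraries, at an adjusted p of 0.05; fold changes of low genes are understated. The fit was tested on simulated data. Members, lists and tests were chosen with earlier results of these data known. Values per library are given for the 24 members with the highest mean, other members by range or where singled out after their values were seen, and further lists by up to 4 genes of the highest mean. Other settings tried were no filter or a stricter one, pseudocounts of 0.1 and 5, scaling by median ratios or quantiles, array weights, a looser adjusted p of 0.1, a block for the replicate number, and leaving out single libraries. Tables and figures were made with Python 3.11.15.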

Additional observations from a re-analysis of the deposited data

How the results depend on the processing

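The number of the 39 genes past the threshold was 0 in every setting run except without WT replicate 3, where it was 1 (range 0 to 1 with a library left out). The number of all tested genes past it was 2, and 0 without a filter, 0 with the replicate number as a block, and 0 to 478 with a library left out, the highest without WT replicate 3. The labels do not say whether libraries of the same number were paired, and 3 libraries per genotype are too few to settle it. The correlation of deviations from the group means was 0.14, 0.03 and -0.21 for replicates 1, 2 and 3. The highest value, 0.48, was that of cKO replicate 3 with WT replicate 2. With the replicate block 0 of the 39 genes passed as before. The median log2 difference of the 39 genes was 0.003 to 0.30 with other pseudocounts, scalings or weights, and 0.35 over the 13 genes above the filter and 0.21 over the 3 above 5 FPKM. The last 2 medians cover genes picked by their levels in these same libraries.

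Of 172 values of single genes under other settings, 149 kept direction and call, 22 turned direction, 18 of them with a library left out, and 1 gained the call. Fits without a filter, with the stricter filter or with the replicate block leave each log2 difference unchanged. Their values are among the 149 and could not turn direction, so this count overstates how stable the directions were. In the filtered fit, array weights gave -0.20 for Dazl, -0.60 for Mael and -0.50 for Ybx2. Quantile normalization gave -0.041 for Mael, and the cause of these turns was not tested. Leaving out 1 library at a time, the difference on the log2 scale ranged from -0.64 to 1.64 for Dazl, -0.99 to 0.70 for Ddx4, -1.79 to 0.96 for Ldhc, -1.19 to 1.31 for Mael, -1.37 to 0.0083 for Pgk2, -0.084 to 0.63 for Syce2, -0.45 to 2.31 for Tex101 and -1.11 to 1.17 for Ybx2. Groups of 3 libraries were too small for a check of single outlying values.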

Other observations

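Some genes listed with the germ line were above 1 FPKM in all 6 libraries, and their highest pair of libraries was not cKO replicate 1 and WT replicate 3. They were picked after their values were seen, and their levels still varied between libraries. Tdrd7, a Tudor protein also known from the lens, had 15.0, 17.0 and 16.8 FPKM in libraries labelled cKO and 7.67, 13.4 and 22.98 FPKM in WT libraries. Psmc3ip, the HOP2 partner of DMC1, had 6.75, 4.29 and 4.76 FPKM against 4.17, 3.47 and 2.63 FPKM, and its own partner Mnd1 had 2.30, 2.38 and 3.13 FPKM against 3.05, 1.93 and 3.49 FPKM. Mybl1, the transcription factor A-MYB of pachytene spermatocytes, had 2.37, 3.01 and 2.27 FPKM against 1.03, 2.02 and 3.45 FPKM. Its level in cKO replicate 2 exceeded that in cKO replicate 1, although Piwil1 was 0.164 FPKM in cKO replicate 2 and 16.3 FPKM in cKO replicate 1.

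Dmrt1, a transcription factor of both Sertoli cells and spermatogonia, was highest in a library of neither pattern, with 2.65, 1.22 and 9.61 FPKM in libraries labelled cKO and 2.16, 1.19 and 1.42 FPKM in WT libraries. Tcea3 was highest in WT replicates 1 and 2, with 2.36, 1.70 and 2.56 FPKM against 5.33, 5.71 and 2.71 FPKM. A list of 8 mitotic genes, among them Plk1 and Mki67, summed to 164.1, 200.4 and 267.5 FPKM in libraries labelled cKO and to 318.2, 302.2 and 115.5 FPKM in WT libraries, so the sum was lowest in cKO replicate 1 and WT replicate 3 within their genotypes. Not every gene followed the sum: among WT libraries Top2a and Bub1 were lowest in replicate 1, at 20.9 and 7.41 FPKM, and among cKO-labelled libraries Cdc20 was lowest in replicate 2, at 43.8 FPKM.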
